A study of Mus musculus with 13 samples.

Results

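The Hoxc cluster is the row of homeobox genes on mouse chromosome 15 that runs from Hoxc13 at its low-coordinate end through Hoxc12, Hoxc11, Hoxc10, Hoxc9, Hoxc8, Hoxc6 and Hoxc5 to Hoxc4 at its high-coordinate end. It was examined here as a window of 27 bins of 5 kb on the mm9 build, beginning at position 102740001 of chromosome 15. The members are all listed peaks that overlap this window, 173 of 109165 peaks in 9 peak lists. The RefSeq gene table at hand names all 9 genes and gives them in this order, but it is on the GRCm38.p6 build. Peaks are therefore placed by mm9 position and by the end of the cluster they lie nearer to, and were not assigned to single genes.

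Hox genes encode transcription factors that set position along the body axis, and in blood some of them keep progenitor cells from maturing. Their clusters are the classical targets of Polycomb: in cells that do not use a cluster, trimethylation of histone H3 at lysine 27 (H3K27me3) spreads over it, and where genes of the cluster are in use, trimethylation at lysine 4 (H3K4me3) takes its place at promoters. Among the members, Hoxc13 is known for its role in hair and nails, Hoxc10 and Hoxc9 for motor neurons and the trunk and hindlimb skeleton, Hoxc8 and Hoxc6 for the thoracic region, and Hoxc4 for antibody class switching in B cells and for blood progenitors.

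The study mapped H3K4me3, H3K27me3 and the NUP98-PHF23 fusion protein (NP23) by chromatin immunoprecipitation and sequencing, to relate the marks to binding of the fusion. NP23 joins a nuclear pore protein to a chromatin reader that binds H3K4me3 through a PHD finger. Line 961C is a myeloblast line from an NP23 acute myeloid leukaemia (AML) of a C57BL/6 mouse. Lines 748T and 106A are lymphoblast lines from NP23 precursor T cell lymphoblastic disease (pre-T LBL) of 2 different C57BL/6 mice, and the sample titles write the second as M106A. The SCL-LMO1 line is the control without the fusion, lymphoblasts of C57BL/6+C3H hybrid strain whose pre-T LBL arose from the SCL and LMO1 oncogenes, its cell line label is 7298/2, and its samples are titled 7298-2. All 4 lines grew without cytokines. The sources used here give neither the age of the mice nor the promoter behind each transgene.

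Each line had 1 list per histone mark, and NP23 was mapped in 961C alone, in a sample titled 961C-V5, with an antibody to the V5 tag. No line had the same antibody a second time, and each disease other than NP23 pre-T LBL is 1 line, so nothing was tested between groups and differences below have no replicate check. Oncogene, strain and line cannot be told apart for the SCL-LMO1 line, nor can disease type and line for 961C. Lists differ in length, with 19469, 8412, 5600 and 4875 H3K27me3 peaks in 961C, 748T, 106A and the SCL-LMO1 line, against 16324 to 17696 for H3K4me3. Read totals are not given, so depth is unknown, and pileup heights are compared within a list only. T cell and myeloid marker genes were not checked, for want of gene positions on mm9.

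The Hoxc window carried H3K27me3 in all 4 lines, over an extent and at a density that differed between them. In 961C, H3K27me3 formed 47 peaks that covered 57958 bp, or 42.9% of the window. In 748T there were 36 peaks over 14099 bp (10.4%), and in 106A there were 59 peaks over 34900 bp (25.9%). The SCL-LMO1 line had 20 peaks over 6478 bp (4.8%). The 2 NP23 pre-T lines differed from each other by more than 748T differed from the SCL-LMO1 line, and their mean of 24499.5 bp carried an SD of 14708.5 bp (n = 2).

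The lists also differed in how much they cover in all, which was 8.86, 2.24, 1.54 and 1.2 Mb of H3K27me3 in the same order of lines. The part this has in the amounts above was not tested. The window held 0.654% of all H3K27me3-covered bases of 961C, 0.63% of 748T and 2.26% of 106A, against 0.539% of the SCL-LMO1 line. By this share 106A, whose list is short, gave the window the most weight, and the other 3 lines lay close together. With every H3K27me3 list reduced to its 4875 tallest peaks, the window still had 42007 bp in 961C, 12482 bp in 748T and 33788 bp in 106A, against 6478 bp for the SCL-LMO1 line, and the order of the lines was as before.

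Set against the rest of the genome, few stretches of this length carried as much H3K27me3. The genome was cut into 19989 tiles of the window's length from the start of each chromosome, and 1 of these tiles happens to hold nearly the whole window. In 961C and in 106A that tile was the only one to reach the covered bases of the window (0.005% of tiles in each). In 748T it was 1 of 5 such tiles (0.025%), the others lying on chromosomes 8, 9, 4 and 11. In the SCL-LMO1 line it was also 1 of 5 (0.025%), and the other 4 were all on chromosome 16.

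Counted in 5 kb bins, H3K27me3 was present in 18 of 27 bins in 961C (66.7%, exact 95% interval 46.0 to 83.5), in 15 bins of 748T (55.6%, 35.3 to 74.5) and in 25 bins of 106A (92.6%, 75.7 to 99.1). The SCL-LMO1 line had it in 11 (40.7%, 22.4 to 61.2). Neighbouring bins are not independent, and the intervals cover counting error only. Of all 540146 bins of the genome, 2.37% held a peak in 961C, 1.21% in 748T, 0.87% in 106A and 0.836% for the SCL-LMO1 list, so in each line the window was more densely marked than the genome as a whole. The same held for bins at least 25% covered, which numbered 18 in 961C (0.4% of genome bins), 5 in 748T (0.0518%), 14 in 106A (0.0285%) and 3 for the SCL-LMO1 list (0.00907%).

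No bin of the window was free of H3K27me3 in all 4 lines, while 516580 of 540146 genome bins were. H3K27me3 was listed in all 4 lines in 4 bins (14.8%, against 0.0165% of genome bins). It was listed in 3 lines in 12 bins (0.139% of genome bins had it in 3 lines or more). Another 6 bins (22.2%) had it in 2 lines, as did 3399 genome bins, and 5 bins (18.5%) in a single line, as did 19416 genome bins. The 4 bins shared by all lines begin at 102740001, 102775001, 102790001 and 102800001. At single-base resolution the overlap was smaller than by bins: 1254 bp (0.929% of the window) lay under H3K27me3 peaks of all 4 lines, a share not computed for the genome. Those bases fall in 5 stretches, the longest from 102803045 to 102803632, all in the middle of the cluster between 102792229 and 102803632.

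**Figure D1:**
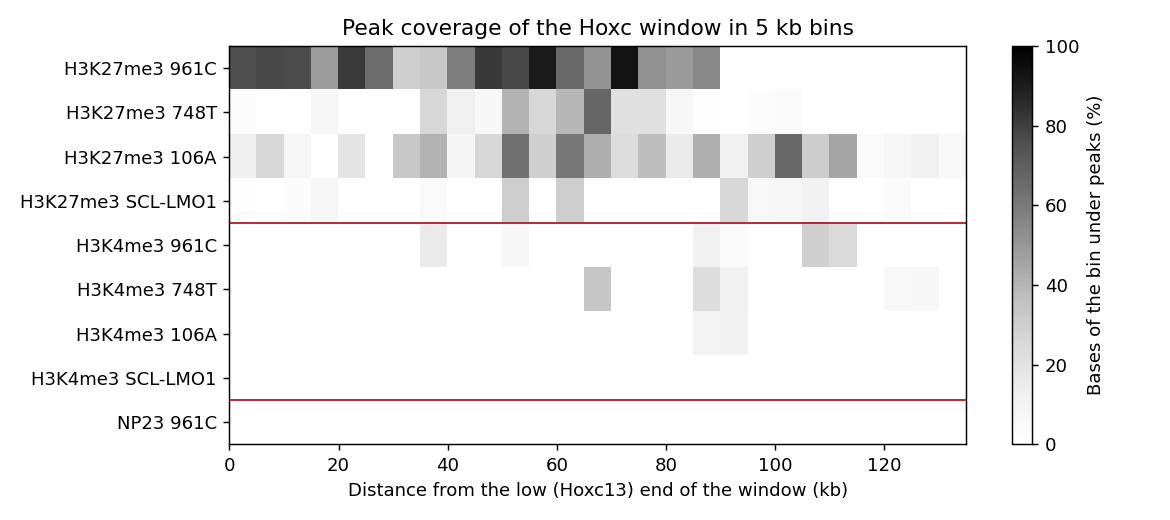
Share of each 5 kb bin under listed peaks (grey scale, percent), with 1 row per list and distance from the Hoxc13 end of the window (kb) across. H3K27me3 of 961C fills the 18 bins at the left and none of the 9 at the right, H3K27me3 of 106A reaches 25 bins, and the rows of H3K4me3 in the SCL-LMO1 line and of NP23 are empty.

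In 961C the domain was dense and one-sided. All of the first 18 bins, from the Hoxc13 end to 102830000, were marked, each to between 29.4% and 93.1% of its length with a median of 65.6%. All of the last 9 bins, 45 kb toward the Hoxc4 end, were empty. The last peak ended at 102828315 and the next one above began at 102892743, which leaves 64427 bp without listed H3K27me3. The stretch from the last peak of the window to the next one above was 31494 bp in 748T and 8964 bp in 106A, against 68034 bp in the SCL-LMO1 line, whose last peak ended further up, at 102860991. Split into 3 stretches of 45 kb, coverage was 60.5% in the stretch nearest Hoxc13, 68.3% in the middle and 0% in the stretch nearest Hoxc4.

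Peaks of 961C in the cluster were wide and tall for their list. Their median width was 739 bp against 289 bp over the list, and 41 of 47 were wider than that median. The widest, 4653 bp from 102810213 to 102814865 and 4631 bp from 102761208 to 102765838, ranked 18th and 19th of 19469. The next in width were 3971 bp from 102787139, 2595 bp from 102815116 and 2465 bp from 102794468. The tallest peak, from 102802413 to 102804432, reached 33 reads and ranked 45th by height, where the median of the list was 12 reads.

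In 106A H3K27me3 ran through the whole cluster, including the part that was empty in 961C. Coverage was 16.3% in the stretch nearest Hoxc13, 37.6% in the middle and 23.6% in the stretch nearest Hoxc4, and a single run of 21 bins reached from 102770001 to the high end of the window. The widest 106A peak of the window, 3333 bp from 102840066 to 102843398, lay toward Hoxc4 and was the 4th widest of the 5600 in its list. The other wide peaks were 2251 bp from 102802868, 1852 bp from 102851347, 1744 bp from 102816016 and 1418 bp from 102824766. They ranked 11th, 25th, 31st and 48th by width in their list, of which the window held 1.05% of the peaks. The tallest peaks, from 102749391 and from 102833271, reached 19 reads against a list median of 10. The second height that each list gives, taken here as background because it is low, had a mean above 1 read at 10 of the 59 peaks, and the line kept 30033 bp without them.

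In 748T the mark was concentrated in the middle. Coverage was 5.25% in the stretch nearest Hoxc13, 25.4% in the middle and 0.687% in the stretch nearest Hoxc4, and 26 of 36 peaks were centred in the middle stretch. The fullest bin, from 102805001 to 102810000, was 66.8% covered. The 5 widest peaks were 1034 to 1185 bp, beginning at 102778749, 102808811, 102802519, 102794615 and 102792937. The tallest, from 102799419 to 102799666, reached 31 reads, more than 99.4% of its list. In 748T this second height stood higher on chromosome 15 than elsewhere: over H3K4me3 peaks, weighted by width, it averaged 0.366 reads there and 0.243 on the other autosomes, a ratio of 1.51, against 0.99 to 1.1 in the other 3 lines. Over H3K27me3 peaks it averaged 0.174 and 0.0834 reads, a ratio of 2.09, against 0.871 to 1.15 in the other 3 lines. Chromosome 15 also held 7.6% of the H3K27me3 peaks of 748T, against 4.16% to 5.54% in the other lines. The part this has in the values of 748T was not tested. Joining peaks within 1 kb of each other took the covered bases of 748T to 22923 bp.

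In the SCL-LMO1 line the peaks were few and scattered, with 1.9% of the stretch nearest Hoxc13 covered, 6.63% of the middle and 5.87% of the stretch nearest Hoxc4. The fullest bins were 30.0% covered from 102800001 and 29.7% from 102790001. Its widest and tallest peak in the window, 964 bp from 102832537 to 102833500, reached 18 reads, more than 96.2% of its list. The second height at this peak had a mean of 1.2 reads, against a median of 0.405 over the list. Without peaks whose second height averaged above 1 read, this one among them, the line kept 5266 bp. The next in width, from 102803045, 102790318, 102792822 and 102802395, were 483 to 769 bp and lay in the middle stretch. Only 5 of the 20 peaks were taller than the list median of 12 reads, and some were tied with it. Most of this pattern thus rests on peaks at or below the median. With peaks above the median alone, called the taller 50% below, 1898 bp in 4 bins were left. Tied peaks are left out, so this kept less than 50% of the list: peaks of 12 reads shared rank 1904 of 4875.

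**Figure D2:**
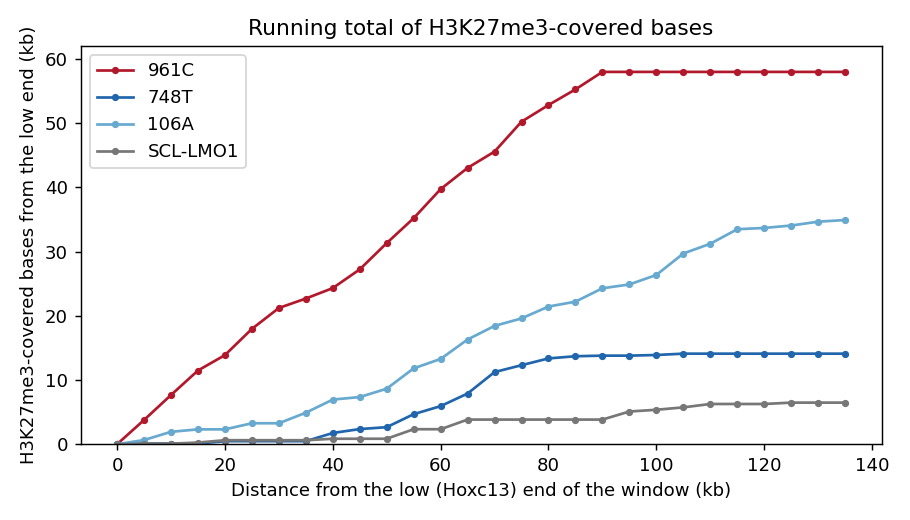
Running total of H3K27me3-covered bases (kb) from the Hoxc13 end of the window (distance in kb), 1 line per cell line and 1 point per 5 kb bin. The 961C curve climbs to 57958 bp and is flat over the last 45 kb, 748T gains most of its 14099 bp in the middle, and 106A climbs throughout to 34900 bp, above the SCL-LMO1 line at 6478 bp.

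Most bases under H3K27me3 of 748T were also covered in 961C, the line that covered most of the window. Of the bases covered in 748T, 81.4% were covered in 961C and 53.9% in 106A, and of the bases covered in 106A, 51.1% were covered in 961C. Taken the other way, 19.8% of the 961C bases were covered in 748T and 30.8% in 106A. With the SCL-LMO1 line the shared part was 6.15% of the 961C bases, 11.4% of the 748T bases and 8.87% of the 106A bases, which made up 55.1%, 24.9% and 47.8% of the SCL-LMO1 bases. All of these shares move with the length of the lists and with how densely each line covered the window. H3K27me3 of 961C covered 42.9% of the window and 68.3% of its middle stretch, which held 11429 of the 14099 bp of 748T. That of 106A covered 25.9% of the window and 37.6% of the middle stretch. Whether the shared parts exceed this density was not tested. Shared bins say little here, because 106A held a peak in 92.6% of the bins.

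H3K4me3 covered less of the cluster than H3K27me3 in each line. There were 5 peaks in 961C over 4539 bp (3.36% of the window), 4 in 748T over 4011 bp (2.97%) and 2 in 106A over 1027 bp (0.761%). The SCL-LMO1 line had 0 peaks in the window, although its H3K4me3 list is as long as the others. By bins this was 6, 5 and 2 of 27 in the NP23 lines and 0 in the SCL-LMO1 line, and the share of genome bins with a peak was 3.38%, 3.3%, 3.03% and 3.45%. The lines thus lay from above their genome share in 961C (22.2% of bins) to below it in the SCL-LMO1 line, and with 27 bins the exact interval for the count of 0 reaches 12.8%. With the taller 50% of each list alone, H3K4me3 covered 2667 bp in 961C, 1752 bp in 748T and 0 bp in 106A.

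A single site carried H3K4me3 in all 3 NP23 lines. In 748T it was 1 peak from 102828860 to 102830611 (1752 bp) that reached 108 reads, more than 67.2% of its list. In 961C it was split into peaks from 102829194 to 102829694 and from 102829922 to 102830207, with maxima of 29 and 18 reads, more than 41.9% and 28.7% of the list. In 106A it was likewise split, from 102829269 to 102829685 with 40 reads and from 102829916 to 102830525 with 66 reads, more than 28.2% and 38.0% of the list. The second height had a mean of 2.23 reads at the first of these 106A peaks and 1 read at the other, against a median of 1.46 over the list. Both 106A peaks lay wholly inside the 748T peak, and so did both 961C peaks. The site spans 2 neighbouring bins (7.41% of the window) that had H3K4me3 in the 3 NP23 lines and none in the SCL-LMO1 line, as did 0.0842% of genome bins. The peaks here were lower than the median of their list in 961C and 106A, and the site was absent from the taller 50% of those lists.

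This site sat in a gap of H3K27me3 in every line, as did most bases of the window. H3K27me3 covered 42.9% (961C), 10.4% (748T), 25.9% (106A) and 4.8% (SCL-LMO1) of the window. For SCL-LMO1 the gap was the longest of that list within the window, 28165 bp from 102803814 to 102831978. Whether the gap at this site goes beyond such sparse coverage was not tested. Measured from the 748T H3K4me3 peak, the nearest H3K27me3 peak was 544 bp away in 961C, 2341 bp in 748T and 100 bp in 106A, against 1367 bp in the SCL-LMO1 line. In 961C it lay just beyond the upper edge of the H3K27me3 domain, which ended at 102828315. In 106A, H3K27me3 lay on both sides of it, ending at 102828759 and resuming at 102833271. In the SCL-LMO1 line, which had no H3K4me3 here, the widest and tallest H3K27me3 peak of that line in the window began at 102832537. The second height at that H3K27me3 peak was also raised, with a mean of 1.2 reads. The closest H3K4me3 peak of the SCL-LMO1 line was 162401 bp away.

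**Figure D3:**
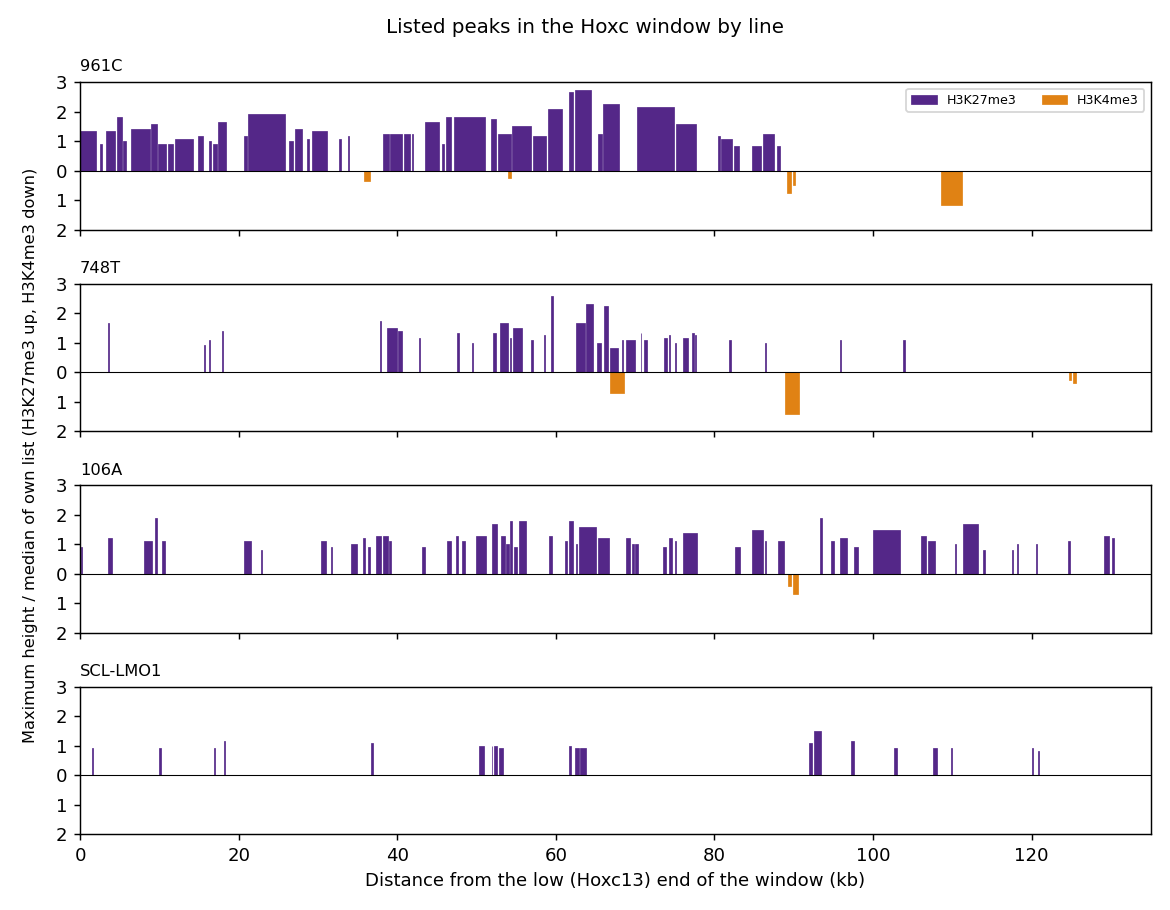
Listed peaks of both marks by line, against distance from the Hoxc13 end of the window (kb). Bars span each peak, and their length is the maximum pileup height divided by the median of the peak's own list, H3K27me3 upward and H3K4me3 downward. The H3K4me3 site near 90 kb is present in 961C, 748T and 106A and missing in the SCL-LMO1 line, and no H3K27me3 bar stands over it.

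The other H3K4me3 peaks were private to a line. The widest of all, 2667 bp from 102848546 to 102851212 in 961C, was wider than 92.3% of its list and reached 44 reads against a list median of 38. It lay in the stretch toward Hoxc4 that had no H3K27me3 in 961C, 20230 bp from the nearest such peak of its own line. The same bases carried 1 H3K27me3 peak over 3.3% of them in 106A and 1 over 3.56% in the SCL-LMO1 line, and none in 748T. In 748T, a peak from 102806881 to 102808557 (1677 bp, 54 reads) lay in the middle of the cluster. A pair of low 748T peaks, from 102864705 to 102864967 with 21 reads and from 102865280 to 102865598 with 29 reads, lay near the Hoxc4 end, and H3K27me3 of 106A covered 32.7% of the first.

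In 961C and 748T, 1 H3K4me3 peak each overlapped H3K27me3 of the same line. In 748T the peak from 102806881 overlapped 2 H3K27me3 peaks of the same line over 66.5% of its length, and the 961C H3K27me3 domain covered 68.1% of the same bases. In 961C the low peak from 102794026 to 102794343, with 9 reads, was 90.3% covered by H3K27me3 of 961C, and H3K27me3 of 748T and 106A lay over 47.2% and 48.7% of it. The remaining 961C peak, from 102775834 to 102776600 with 13 reads, was free of H3K27me3 in 961C, 1614 bp from the nearest, and 2 peaks of 106A covered 35.2% of it. Overlap was thus found at 1 of 5 H3K4me3 peaks in 961C, where 2.16% of all H3K4me3 peaks of the line overlapped H3K27me3, at 1 of 4 in 748T (0.787% of the list) and at 0 of 2 in 106A (0.147%). The SCL-LMO1 line had no H3K4me3 peak here, and 0% of its list overlapped H3K27me3. Both marks shared a bin in 3 of the 6 H3K4me3 bins of 961C, 2 of the 5 of 748T and 2 of the 2 of 106A. Of all bins of the window, 66.7%, 55.6% and 92.6% held H3K27me3 in these lines. The H3K4me3 bins of 961C and 748T were thus not richer in H3K27me3 than the window as a whole. In 106A both marks shared bins but 0 bases. Over the genome H3K27me3 was present in 4.41%, 3.72% and 0.592% of the H3K4me3 bins of these lines, and in 0.166% of those of the SCL-LMO1 line. With so few peaks the counts are given as a description. Whether both marks sat in the same cells there was not tested.

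No NP23 peak was listed in the Hoxc window, where 0.267% of genome bins held one. The exact interval for 0 of 27 bins reaches 12.8%, so the count of 0 does not set the window apart from the genome. Chromosome 15 carried 55 NP23 peaks in all. The nearest, from 98701320 to 98701562, lay 4038438 bp below the window, and none was listed above it. None of the H3K4me3 peaks described above, including the site shared by the NP23 lines, therefore had a listed NP23 peak in 961C. The list holds peaks past a threshold that is not given, so weaker binding was not analysed here.

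Windows of the same length around the other Hox clusters were set by hand on mm9 from general knowledge, without a gene annotation of that build to check them against, on chromosome 6 from 52090001 for Hoxa, chromosome 11 from 96110001 for Hoxb and chromosome 2 from 74490001 for Hoxd. As these windows are drawn, H3K27me3 covered more of the Hoxc window than of any of the others in all 4 lines. In 961C it covered 57958 bp of Hoxc, against 22961 bp of Hoxa, 7924 bp of Hoxb and 11347 bp of Hoxd. In 748T the values were 14099 bp for Hoxc, against 893, 3432 and 740 bp for Hoxa, Hoxb and Hoxd. In 106A they were 34900 bp for Hoxc, against 0, 9808 and 652 bp, and in the SCL-LMO1 line 6478 bp for Hoxc, against 536, 2120 and 352 bp. The Hoxc window held 57.8%, 73.6%, 76.9% and 68.3% of the H3K27me3 bases of the 4 windows in 961C, 748T, 106A and the SCL-LMO1 line.

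For NP23 and H3K4me3 the order of the windows was another. NP23 covered 0 bp of the Hoxc window, against 29305 bp of Hoxa in 4 peaks, 59245 bp of Hoxb in 6 peaks and 0 bp of Hoxd. H3K4me3 of 961C covered 4539 bp of Hoxc, against 35945 bp of Hoxa, 61839 bp of Hoxb and 0 bp of Hoxd. In the NP23 pre-T lines 748T and 106A, H3K4me3 covered 4011 and 1027 bp of Hoxc, against 37395 and 30064 bp of Hoxa. Hoxb had 3902 and 1354 bp and Hoxd 919 and 4379 bp in 748T and 106A, so Hoxc came after Hoxa in 748T and last of the 4 in 106A. In the SCL-LMO1 line H3K4me3 covered 0 bp of Hoxc, against 346 bp of Hoxa, 1101 bp of Hoxb and 1831 bp of Hoxd. In 961C the windows with NP23 were thus those with the most H3K4me3, and Hoxc was the window with the most H3K27me3. The windows with NP23 were not those with the least H3K27me3 throughout. Hoxa came next after Hoxc with 22961 bp of it, above Hoxd with 11347 bp, which had neither NP23 nor H3K4me3.

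**Figure D4:**
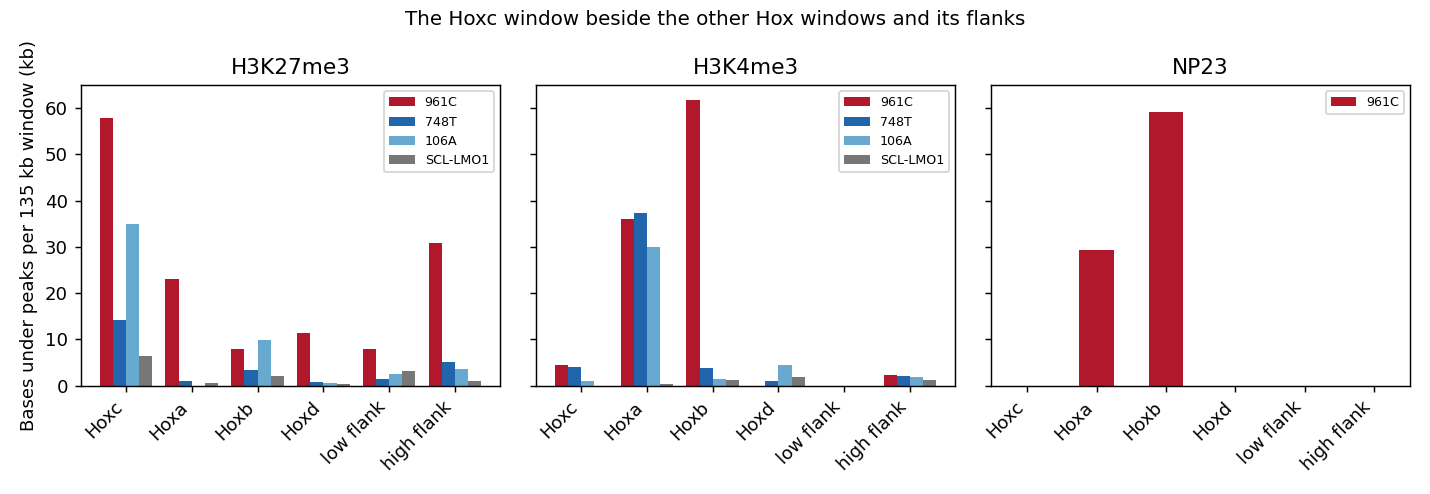
Bases under listed peaks (kb) in windows of equal length at the Hoxc cluster, the other 3 Hox clusters and the flanks of Hoxc, for H3K27me3, H3K4me3 and NP23, with 1 bar per line. The Hoxc bars are the highest for H3K27me3 in each line (57958 bp in 961C).

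The flanks of the Hoxc window carried less H3K27me3 than the window. That of 961C covered 57958 bp of the window, against 8000 bp of the stretch of equal length below it and 30807 bp of that above it. For 748T the values were 14099 bp against 1346 and 5018 bp, for 106A 34900 bp against 2593 and 3668 bp, and for the SCL-LMO1 line 6478 bp against 3251 and 902 bp. H3K4me3 was absent from the lower flank in all lines. The upper flank had 2325 bp of it in 961C and 2095 bp in 748T, less than the window, and 1861 bp in 106A and 1208 bp in the SCL-LMO1 line, more than the window.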

How the data were processed

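Formaldehyde-fixed chromatin was sheared and immunoprecipitated, and single-end reads were sequenced, per the labels' protocols. CASAVA 1.9, BWA 0.5.9-r26 and the mm9 build are named in the submitters' processing notes. The sources used here name no peak caller and no peak threshold. The authors deposited 1 peak list per library for 9 of 13 samples. Input from the 4 lines was not analysed here. Each row gives a start, an end, and the mean and maximum pileup height of the sample and of a second track. Starts were read as counting from 0, and positions are printed counting from 1. Heights show no scaling.

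Peaks overlapping the window by at least 1 bp were taken, clipped to it and merged for coverage. Shares of bins carry exact Clopper-Pearson 95% intervals. Genome bins and tiles run to the furthest listed peak end of each chromosome. The functions were tested on simulated data and returned the covered bases and bins of 200 of 200 simulated lists. Named peaks are all H3K4me3 and NP23 peaks of the window and the 5 widest and the tallest of each H3K27me3 list, with others, among them a tied tallest, named after their values were seen. The window and the comparisons were chosen with earlier results of these data known. Computations used Python 3.11.15, numpy 2.4.6, pandas 2.3.3, scipy 1.17.1 and matplotlib 3.10.9.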

Additional observations from a re-analysis of the deposited data

How the results depend on the processing

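Depth is unknown and each list is 1 library, so the height and number of listed peaks limit what can be seen. Alternatives were the taller 50% of each list, peaks within 1 kb joined, lists of equal length, a window 10 kb wider at each end, a second-track mean of at most 1 read, bins shifted by 2.5 kb, and at least 250 bp of a bin covered. The taller 50% are peaks above the median height of their list, so ties at the median are left out and fewer than 50% can remain. Of 98 values that these alternatives gave for results above 0, 83 stayed within 1.5 times and 15 did not. Some of the 83 could not move. Equal length leaves the shortest list of each mark unchanged, and the second-track limit removes no peak of 961C or 748T in the window. All 34 values of results that were 0 stayed 0; filtering or joining peaks cannot raise a count of 0. With the taller 50% of each list, H3K4me3 covered 2667 bp in 2 bins in 961C, 1752 bp in 2 bins in 748T and 0 bp in 0 bins in 106A, H3K27me3 of the SCL-LMO1 line covered 1898 bp in 4 bins, and 0 H3K4me3 peaks overlapped H3K27me3 in 961C and in 748T. With lists of equal length the overlap in 961C was also 0. H3K4me3 of 106A covered 610 bp under the second-track limit and 1 bin with shifted bins. H3K27me3 of 748T covered 22923 bp with peaks joined, and that of the SCL-LMO1 line held 7 bins when 250 bp were required. The cause was not tested. Leaving out a pre-T line gave 14099 to 34900 bp of H3K27me3 and 1027 to 4011 bp of H3K4me3, so the means of the pre-T lines rest on which line is taken. The Hoxc window ranked 1 of 4 Hox windows by H3K27me3 in every line with the taller 50% as well. No paired analysis was possible because the results come from no test: each line has 1 library per antibody, and marks were set side by side within a line as values.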

Other observations

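Beyond the Hoxc4 end of the window, H3K27me3 of 961C resumed in blocks. Peaks of the upper flank were joined where they lay no more than 10 kb apart. The longest block within the flank ran on chromosome 15 from 102914705 to 102954477 (mm9), with 26 peaks that covered 51.2% of its 39773 bp. A block from 102971390 to 102978558 held 7 peaks and one from 103000530 to 103010228 held 5. H3K4me3 was listed in all 4 lines at 1 site of this flank: from 102993008 to 102994127 in 961C (maximum 44 reads), from 102993033 to 102994126 in 748T (123 reads), from 102993059 to 102994149 in 2 peaks in 106A (77 and 35 reads) and from 102993013 to 102994220 in the SCL-LMO1 line (113 reads). It is the nearest H3K4me3 peak of the SCL-LMO1 line to the Hoxc window. A smaller site, from 102999284 in 961C, 102999128 in 748T and 102999345 in 106A, was listed in the 3 NP23 lines and not in the SCL-LMO1 line.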
